A study of Rattus norvegicus with 12 samples.

Results

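YAP and TAZ, the proteins of Yap1 and Wwtr1, are transcriptional coactivators that the Hippo kinase cascade phosphorylates and keeps out of the nucleus. In the nucleus they bind the TEAD transcription factors, which carry them to DNA, and their target genes include the secreted matrix proteins Ccn1 and Ccn2, the ankyrin repeat protein gene Ankrd1 and the junction protein gene Amotl2. Stretch, stiff matrix and cell spreading are known to activate the pair in many attached cell types, osteoblast precursors and vessel cells among them. The 10 genes described here, Yap1, Wwtr1, Tead1, Tead2, Tead3, Tead4, Ccn1, Ccn2, Ankrd1 and Amotl2, were chosen by symbol from a table of 33801 rat genes, and each symbol stood on 1 row. Earlier results of these data were known when these genes were chosen, so their counts beside all tested genes are a description.

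RNA came from bone around mini-implants at the upper first molar site of WT rats, within a diameter of 4 mm. In all, 4 groups of 3 libraries each were measured: loaded Nb3 alloy, where cyclic loading ran for 2 weeks on implants of the alloy Zr58Cu25Al14Nb3; non-loaded Nb3 alloy, with the same implants left static; loaded cpTi, with titanium implants under the same loading; and non-loaded cpTi. The study asked how cyclic loading changes gene expression beside each material. The labels give no age and do not say whether replicates came from separate animals, so the p-values measure the spread between these samples only.

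Reads on genes numbered 12911912 to 22308428 per library. The 3 libraries of loaded Nb3 alloy were unlike the remaining 9. Their correlations with the others, over log2(FPKM + 1), were 0.731 to 0.866, against 0.932 to 0.969 among the others. FPKM is the number of fragments per kilobase of gene, scaled by depth. Mitochondrial genes took 11.97, 24.3 and 11.3% of reads in loaded Nb3 alloy and 4.31 to 6.86% elsewhere. Marker lists of other cells moved with this group. The summed level of 7 neutrophil granule genes was 4.996 to 41.3 FPKM in loaded Nb3 alloy and 1743 to 5075 FPKM in the other 9 libraries, and that of 6 erythroid genes was 2.66 to 16.9 FPKM against 1064 to 2158 FPKM. All 6 tested genes of each list were lower for loading beside Nb3 alloy (limma adjusted p under 0.05, here termed called), and Ltf was at 0 in non-loaded Nb3 alloy and loaded cpTi. The other lists, of 7 genes each unless stated, mostly ran the other way. Fibroblast markers summed to 2088 to 3061 FPKM in loaded Nb3 alloy and 242 to 971 FPKM elsewhere. Smooth muscle and pericyte markers gave 668 to 983 against 112 to 361 FPKM, endothelial markers 259 to 479 against 91.6 to 142 FPKM, and Schwann cell markers 220 to 772 against 57.1 to 350 FPKM. Of these lists 6, 7, 6 and 7 of 7 genes were called higher for loading beside Nb3 alloy. In that comparison 20.7% of all tested genes were called higher and 25.2% lower. Osteoblast markers, the check of the labelled tissue, were high throughout, at 6092 to 16965 FPKM in loaded Nb3 alloy and 3008 to 10488 FPKM elsewhere, with 1 of 7 called. Skeletal muscle markers reached 163 and 745 FPKM in loaded Nb3 alloy replicates 1 and 2, against 6.65 FPKM in replicate 3 and 9.55 to 35.8 FPKM elsewhere, with 2 of 5 tested genes called higher. Cartilage markers summed to 15.8 to 16.9 FPKM in loaded Nb3 alloy and 3.005 to 12.7 FPKM elsewhere, with Col9a1 at 0 in every library and 1 of 4 called higher. In 6 epithelial genes the sums were 5.08 to 72.5 against 12.5 to 28.6 FPKM, and 1 of 2 tested was called lower. The part of these shifts in the results below was not tested. A rescaling to marker genes is given with them as a description and does not test that part. In bulk tissue, fewer cells of a type and less RNA per cell cannot be told apart.

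Beside loaded Nb3 alloy, 7 of the 9 genes that could be tested were higher than beside non-loaded Nb3 alloy, as were 20.7% of all genes tested. Against loaded cpTi 8 of 9 were higher, as were 14.7%. Libraries were also scaled to 35 markers of endothelial, smooth muscle and pericyte, fibroblast, osteoblast and Schwann cells, a choice made after seeing the data. They are termed non-marrow markers here, a label that does not locate the cells. None of the 9 was then called higher for loading beside Nb3 alloy, and Ccn2 alone was against loaded cpTi. On that scale the loading difference of Ccn2 differed between the materials by 0.24, which was not called. Ccn2 had the widest difference of log2(FPKM + 1), a scale that understates low genes, and Ccn1, its close relative, did not pass the test for loading. Loading beside cpTi and the choice of material without loading gave no call among the 9. The tests were made with limma on log2(FPKM + 1), with Benjamini-Hochberg adjustment over 15268 genes that reached 1 FPKM in at least 3 libraries, and a gene was called at an adjusted p under 0.05. The 9 tested genes reached 1 FPKM in 9 to 12 of the 12 libraries; Ankrd1 did so in 1 library and was not tested.

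**Figure D1:**
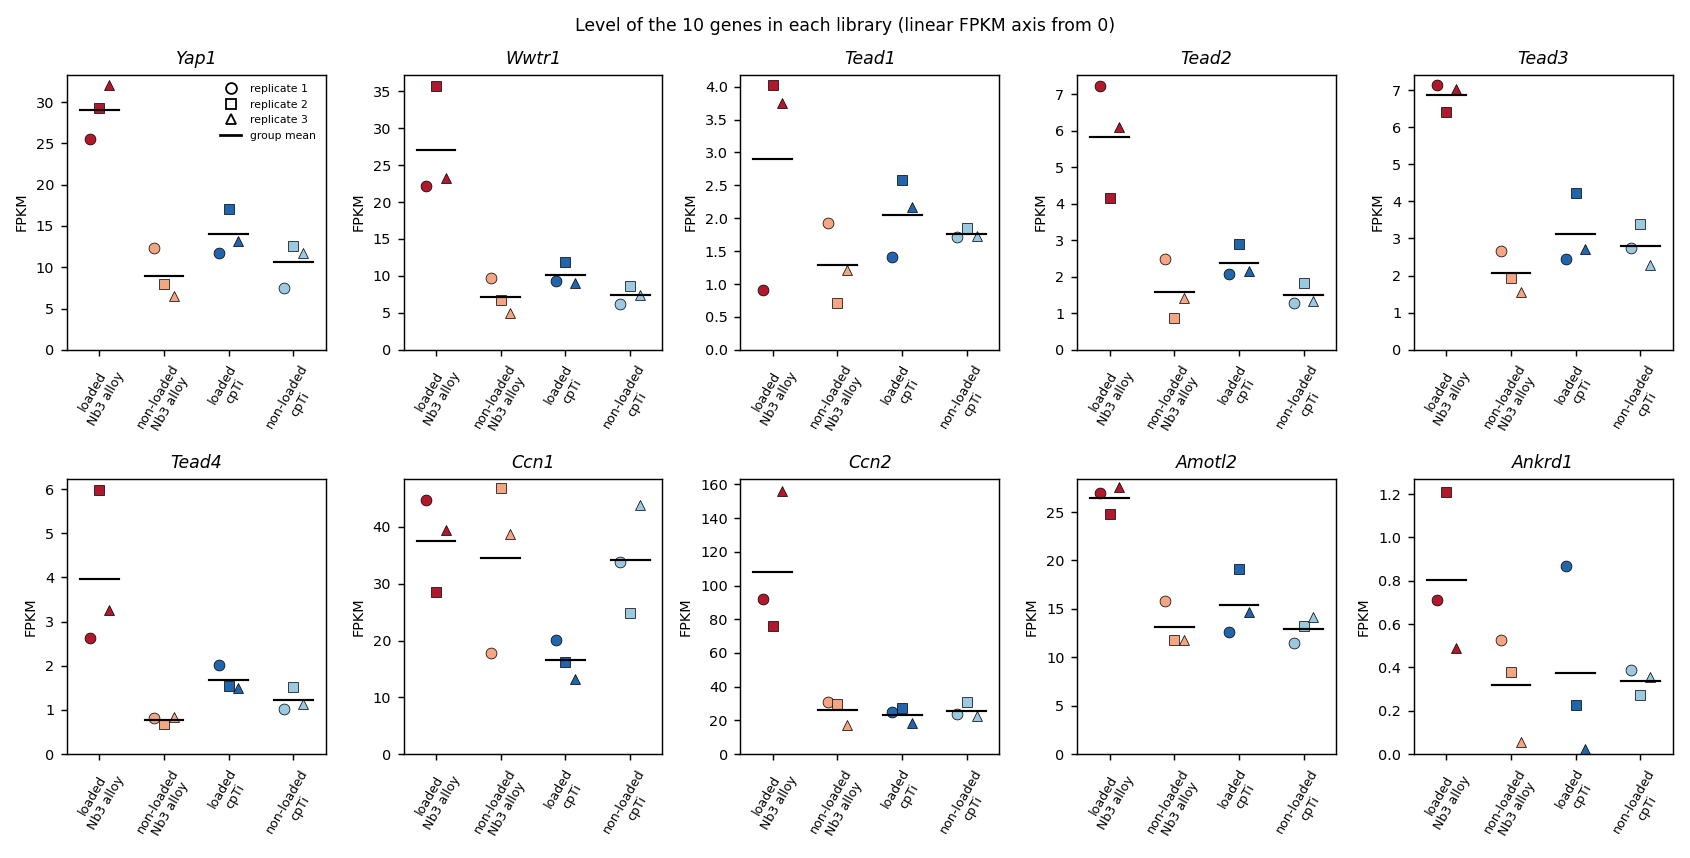
Level of each of the 10 genes (FPKM, linear axes from 0) in the 3 libraries of each group, with the group mean as a bar and the replicate number as the symbol. All 3 loaded Nb3 alloy libraries lie above the other 9 for Yap1, Wwtr1, Tead2, Tead3, Tead4, Ccn2 and Amotl2, while the groups overlap for Ccn1, Tead1 and Ankrd1 beside Nb3 alloy.

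Yap1 (ENSRNOG00000005933, chromosome 8, 5095722 to 5167010, minus strand) had 25.6, 29.3 and 32.1 FPKM in loaded Nb3 alloy and 12.3, 8.02 and 6.49 FPKM in non-loaded Nb3 alloy. In cpTi it had 11.7, 17.1 and 13.1 FPKM with loading and 7.49, 12.6 and 11.8 FPKM without. Every loaded Nb3 alloy library was above all 9 others, while the 2 cpTi groups overlapped. The loading difference beside Nb3 alloy was 1.63 ± 0.24 (log2 scale, SE; limma adjusted p = 0.000275), a 3.24-fold ratio of group means.

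Wwtr1 (ENSRNOG00000016617, chromosome 2, 141648108 to 141766968, minus strand) stood close to Yap1 in level per length. Its values were 22.2, 35.7 and 23.2 FPKM in loaded Nb3 alloy, 9.74, 6.81 and 4.91 FPKM in non-loaded Nb3 alloy, 9.30, 11.9 and 9.01 FPKM in loaded cpTi and 6.26, 8.58 and 7.39 FPKM in non-loaded cpTi. Again the loaded Nb3 alloy libraries were the 3 highest of 12. Loading beside Nb3 alloy gave 1.79 ± 0.24 (log2, SE; limma adjusted p = 0.000146). In cpTi the loaded libraries were all above the non-loaded ones, yet the log2 difference of 0.40 had a 95% interval of -0.12 to 0.91 and did not pass the test (limma adjusted p = 0.781).

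The 4 TEAD genes, which encode the DNA-binding partners, were lower in level per length than both coactivators. Among them Tead3 (ENSRNOG00000000506, chromosome 20, 6392053 to 6411446, minus strand) had the smallest SD in loaded Nb3 alloy. It had 7.14, 6.42 and 7.04 FPKM in loaded Nb3 alloy, 2.67, 1.95 and 1.56 FPKM in non-loaded Nb3 alloy, 2.46, 4.23 and 2.71 FPKM in loaded cpTi and 2.73, 3.40 and 2.28 FPKM in non-loaded cpTi. Its loaded Nb3 alloy libraries lay within 1 FPKM of each other and above every other library, with a loading difference of 1.38 ± 0.20 (log2, SE; limma adjusted p = 0.000243).

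Tead2 (ENSRNOG00000020695, chromosome 1, 95703005 to 95719186, plus strand) had 7.23, 4.16 and 6.12 FPKM in loaded Nb3 alloy and 2.49, 0.879 and 1.42 FPKM in non-loaded Nb3 alloy. The cpTi libraries held 2.08, 2.90 and 2.16 FPKM with loading and 1.29, 1.84 and 1.35 FPKM without. The loading difference of 1.42 ± 0.25 beside Nb3 alloy passed the test (log2, SE; limma adjusted p = 0.00083). In cpTi the groups did not overlap either, but the difference of 0.44 did not pass (95% interval -0.10 to 0.98; limma adjusted p = 0.770).

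Tead4 (ENSRNOG00000005608, chromosome 4, 161497851 to 161572323, minus strand) had 2.63, 5.97 and 3.27 FPKM in loaded Nb3 alloy and 0.822, 0.686 and 0.834 FPKM in non-loaded Nb3 alloy, where it was the lowest of the family with 24 to 26 reads a library. It had 2.02, 1.54 and 1.49 FPKM in loaded cpTi and 1.02, 1.52 and 1.12 FPKM in non-loaded cpTi. Replicate 2 of loaded Nb3 alloy, the library with the highest sum of skeletal muscle markers and the largest mitochondrial share, also had the highest Tead4 value. The loading difference of 1.42 ± 0.23 was called (log2, SE; limma adjusted p = 0.000524).

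Tead1 (ENSRNOG00000015488, chromosome 1, 166792628 to 167003369, plus strand) split the loaded Nb3 alloy libraries, with 0.912 FPKM in replicate 1 against 4.02 and 3.75 FPKM in replicates 2 and 3. Non-loaded Nb3 alloy had 1.93, 0.711 and 1.22 FPKM, loaded cpTi 1.41, 2.58 and 2.18 FPKM, and non-loaded cpTi 1.71, 1.85 and 1.72 FPKM. Replicate 1 of loaded Nb3 alloy thus lay below 8 of the other 9 libraries and its 2 companions lay above all 9. The loading difference was 0.68, with a 95% interval of -0.08 to 1.44, and was not called (limma adjusted p = 0.129). Without that library it was 1.13 and passed (limma adjusted p = 0.00485). A gene on the opposite strand, AABR07005040.1, lies within Tead1, but its mean level was 0.0176 FPKM.

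Ccn2, which encodes the matrix protein also called CTGF and is a much used readout of YAP and TAZ, carried the widest difference of log2(FPKM + 1) (ENSRNOG00000015036, chromosome 1, 20802199 to 20805734, minus strand). It had 92.0, 75.7 and 156 FPKM in loaded Nb3 alloy, 31.0, 29.8 and 17.5 FPKM in non-loaded Nb3 alloy, 24.8, 27.2 and 18.2 FPKM in loaded cpTi and 23.5, 30.9 and 22.6 FPKM in non-loaded cpTi. The 9 other libraries all lay between 17.5 and 31.0 FPKM, and the lowest loaded Nb3 alloy library was above that range. Loading beside Nb3 alloy gave 1.98 ± 0.29 (log2, SE; limma adjusted p = 0.000275), a 4.15-fold ratio of means against 5.07-fold for Tead4, and in cpTi -0.13 (95% interval -0.77 to 0.50; limma adjusted p = 0.949).

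Ccn1, which encodes CYR61 and is likewise a common readout, did otherwise (ENSRNOG00000014350, chromosome 2, 234562408 to 234565484, minus strand). It had 44.7, 28.6 and 39.5 FPKM in loaded Nb3 alloy and 17.9, 46.8 and 38.8 FPKM in non-loaded Nb3 alloy. In cpTi it had 20.03, 16.3 and 13.3 FPKM with loading and 33.8, 24.8 and 43.9 FPKM without. The Nb3 alloy groups overlapped over most of their range, and the 95% interval of the loading difference of 0.20 ran from -0.52 to 0.93 (log2; limma adjusted p = 0.642). In cpTi the loaded libraries were all below the non-loaded ones, with a difference of -0.99 that did not pass after adjustment (limma, unadjusted p = 0.0126, adjusted p = 0.664).

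Amotl2, an angiomotin family gene whose protein binds YAP and restrains it (ENSRNOG00000008487, chromosome 8, 103302992 to 103318910, plus strand), was lowest in non-loaded cpTi by mean. Loaded Nb3 alloy had 27.0, 24.8 and 27.6 FPKM, non-loaded Nb3 alloy 15.8, 11.8 and 11.8 FPKM, loaded cpTi 12.6, 19.1 and 14.6 FPKM, and non-loaded cpTi 11.5, 13.2 and 14.2 FPKM. Loaded Nb3 alloy was again above all other libraries, with the smallest called difference of the genes, 0.97 ± 0.16 (log2, SE; limma adjusted p = 0.000658).

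Ankrd1, a strongly induced target in cultured cells and abundant in striated muscle, was near the detection limit here (ENSRNOG00000018598, chromosome 1, 233815851 to 233834919, minus strand). Its counts were 29, 54 and 21 reads in loaded Nb3 alloy, 20, 16 and 2 reads in non-loaded Nb3 alloy, 30, 9 and 1 reads in loaded cpTi and 15, 9 and 13 reads in non-loaded cpTi. The highest level, 1.21 FPKM, was in loaded Nb3 alloy replicate 2, and the groups overlapped in every comparison. With no filter on low values the loading difference beside Nb3 alloy was 0.45 (95% interval -0.08 to 0.98; limma adjusted p = 0.206).

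The letters upstream of 3 targets, Ccn2, Ccn1 and Amotl2, are shown as a description. RefSeq promoter windows, which run from 250 bases before to 50 bases after a gene's start on GRCr8, were matched for 6 of the 10 genes: Yap1, Wwtr1, Tead3, Ccn1, Ccn2 and Amotl2. Sequences of Ankrd1, Tead1, Tead2 and Tead4 were not analysed here. GRCr8 positions are not comparable with the positions above, which are those of the deposited table. The 250 bases before the start are printed 5′ to 3′ along the gene's strand, with capitals for the core TEAD motif, GGAATG or its reverse complement CATTCC.
Ccn2 promoter, chr1:22624615-22624864, minus strand: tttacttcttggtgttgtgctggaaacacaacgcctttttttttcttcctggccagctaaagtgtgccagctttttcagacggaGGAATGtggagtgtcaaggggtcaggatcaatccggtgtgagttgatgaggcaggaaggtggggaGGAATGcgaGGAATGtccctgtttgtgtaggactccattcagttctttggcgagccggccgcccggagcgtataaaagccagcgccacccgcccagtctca
Ccn1 promoter, chr2:237225690-237225939, minus strand: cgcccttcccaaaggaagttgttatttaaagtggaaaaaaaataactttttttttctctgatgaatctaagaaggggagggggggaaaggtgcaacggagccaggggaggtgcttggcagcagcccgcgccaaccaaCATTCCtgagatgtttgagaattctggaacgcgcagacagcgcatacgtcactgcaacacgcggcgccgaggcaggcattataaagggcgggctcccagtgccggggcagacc
Amotl2 promoter, chr8:112182376-112182625, plus strand: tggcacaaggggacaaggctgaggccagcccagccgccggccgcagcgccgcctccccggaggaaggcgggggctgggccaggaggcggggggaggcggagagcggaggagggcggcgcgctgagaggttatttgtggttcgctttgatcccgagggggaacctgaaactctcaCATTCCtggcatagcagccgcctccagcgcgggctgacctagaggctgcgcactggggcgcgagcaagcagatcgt
The Ccn2 window held 3 TEAD motifs, which begin 166, 101 and 92 bases before the start, and the last pair stands close together. Ccn1 held 1, beginning 113 bases before the start, Amotl2 held 1 at 76 bases and Yap1 held 1 at 116 bases, while the letters were not found in the windows of Wwtr1 and Tead3. Of 27457 rat promoter windows, 13.9% held at least 1 such motif on either strand and 29 windows (0.106%) held 3 or more. The AP-1 motif TGACTCA, on either strand, and the CArG box of serum response factor were in 4.53 and 1.64% of all windows and in none of the 6. These are matches of letters, not measured binding, and their relation to the differences above was not tested.

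In the order of levels, Ccn2 led in loaded Nb3 alloy at 108 ± 42.6 FPKM (mean ± SD, n = 3), with no overlap with Ccn1 at 37.6 ± 8.22 FPKM. Ccn1, Yap1 (29.0 ± 3.25), Wwtr1 (27.1 ± 7.53) and Amotl2 (26.5 ± 1.47 FPKM) followed, and each overlapped its neighbour in that order. A gap without overlap then separated Amotl2 from Tead3 (6.86 ± 0.390), Tead2 (5.83 ± 1.55), Tead4 (3.96 ± 1.77) and Tead1 (2.90 ± 1.72 FPKM), each overlapping the next. In non-loaded Nb3 alloy and in non-loaded cpTi, Ccn1 was first by mean, at 34.5 ± 14.9 and 34.2 ± 9.56 FPKM, and overlapped Ccn2 at 26.1 ± 7.48 and 25.7 ± 4.57 FPKM. In loaded cpTi, Ccn2 (23.4 ± 4.64), Ccn1 (16.5 ± 3.38), Amotl2 (15.4 ± 3.35), Yap1 (14.0 ± 2.76) and Wwtr1 (10.1 ± 1.59 FPKM) each overlapped the next. Amotl2 stood above both coactivators by mean in the 3 groups other than loaded Nb3 alloy, and Ankrd1 was last in all 4 groups.

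For loading beside Nb3 alloy, the 7 called genes were both coactivators, Tead2, Tead3, Tead4, Ccn2 and Amotl2, and the median log2 difference of the 9 was 1.42, against -0.02 over all tested genes. Of all tested genes 45.8% were called in this comparison, which splits into 20.7% called higher and 25.2% called lower. The libraries did not overlap between groups for the same 7 genes and for 50.8% of all tested genes. Leaving out loaded Nb3 alloy replicate 2 also gave 7 calls, beside 6948 of 15268 tested genes.

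**Figure D2:**
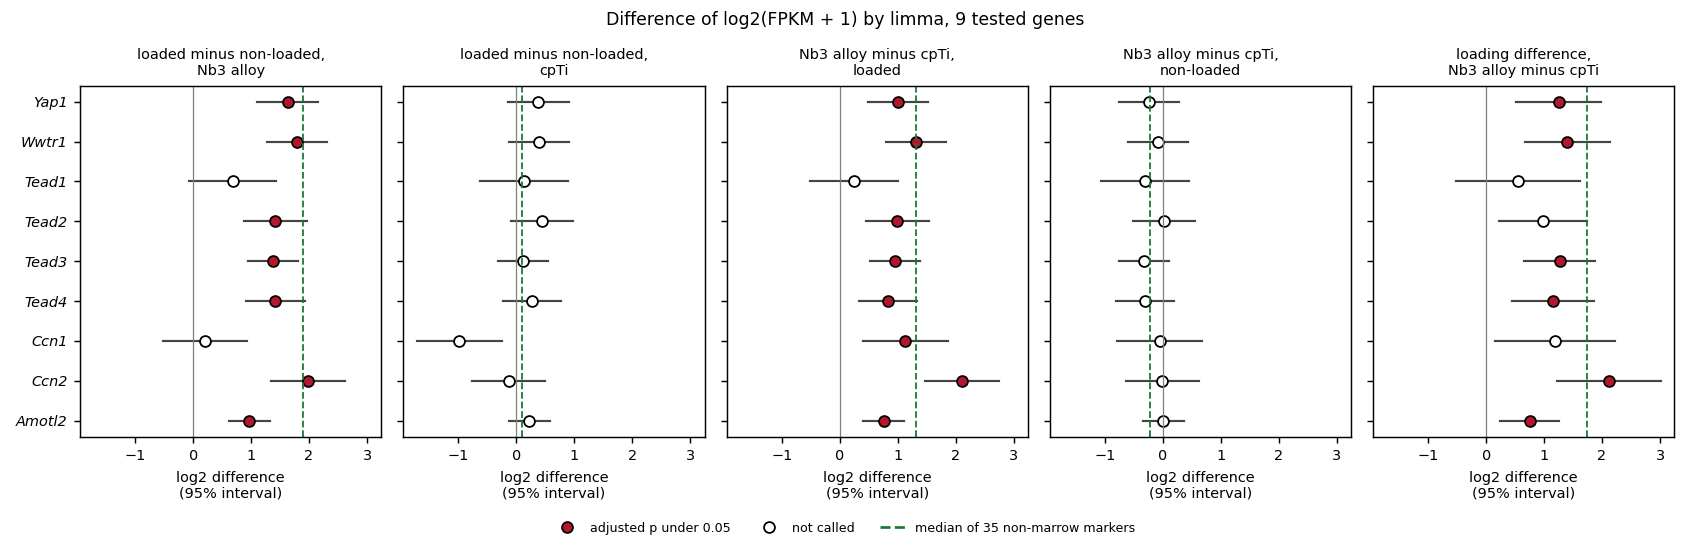
Difference of log2(FPKM + 1) with its 95% interval for the 9 tested genes in 5 comparisons, filled where the limma adjusted p was under 0.05. The dashed line is the median of 35 non-marrow marker genes, at 1.89 for loading beside Nb3 alloy, where 1 of the 9 genes lay above it, and 1.32 for Nb3 alloy against cpTi under loading, where 2 did.

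These differences went with those of most of the non-marrow marker lists. The 35 tested markers of endothelial, smooth muscle and pericyte, fibroblast, osteoblast and Schwann cells had a median log2 difference of 1.89 for loading beside Nb3 alloy. They ranged from 0.56 to 4.13, and 27 of them were called higher, as were 20.7% of all tested genes. Ccn2, at 1.98, was the 1 gene of the 9 above that median. By list the medians were 2.41 for fibroblast, 2.28 for smooth muscle and pericyte, 1.93 for Schwann cell, 1.60 for endothelial and 0.82 for osteoblast markers. The median of the 9 genes, 1.42, lay below all of these but the osteoblast one. Libraries were then rescaled so that the 35 markers had equal means, a choice made after the values were seen. The markers were mostly called higher, so this lowered every gene in loaded against non-loaded Nb3 alloy. None of the 9 was then called higher for loading beside Nb3 alloy. Ccn1 and Amotl2 were called lower on that scale, at -1.80 (limma adjusted p = 0.00143) and -0.99 (limma adjusted p = 0.00046). The median of all tested genes was then -1.68, and 12700 of 15268 were called lower and 156 higher. Yap1 stood at -0.31, Wwtr1 at -0.12 and Ccn2 at -0.04 on that scale, and Tead4 was the 1 gene above 0, at 0.13; none of these 4 passed the test.

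**Figure D3:**
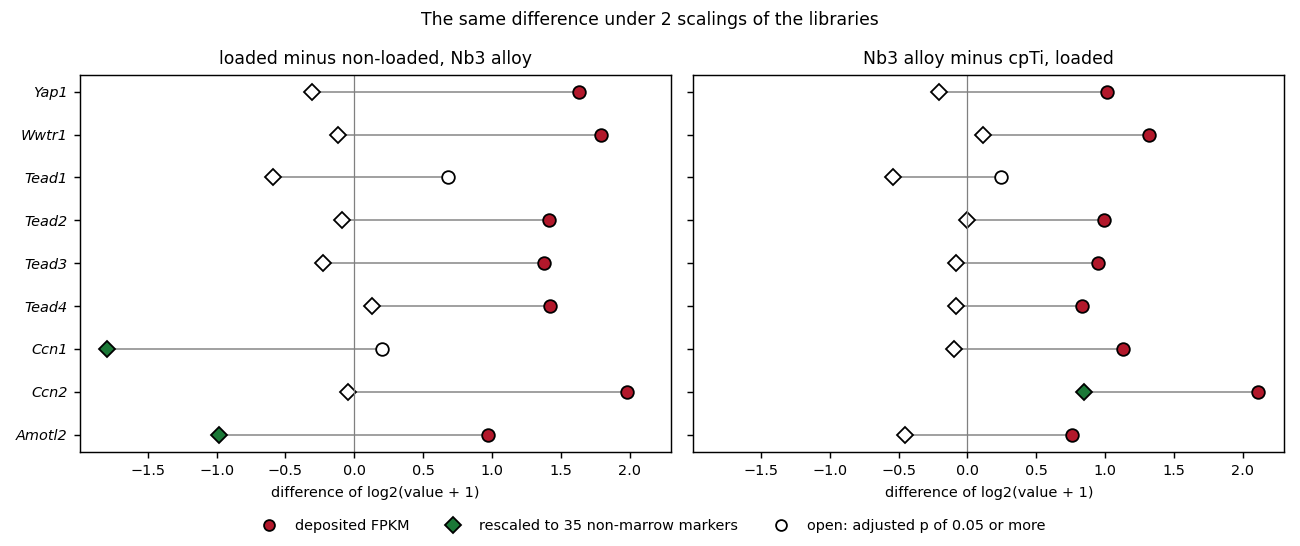
The log2 difference of each of the 9 genes on the deposited FPKM scale (circles) and after rescaling each library to 35 non-marrow markers (diamonds), filled where the limma adjusted p was under 0.05. After rescaling, loading beside Nb3 alloy left 2 calls, Ccn1 and Amotl2, both lower, where 12700 of 15268 tested genes were called lower and 156 higher. Nb3 alloy against cpTi under loading left 1, Ccn2, higher at 0.85, where 159 tested genes were called higher and 10447 lower.

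Under loading, 8 of the 9 genes were higher in Nb3 alloy than in cpTi, and 1 of them, Ccn2, was also higher after rescaling to the non-marrow markers. The 8 were all but Tead1 and did not overlap between the groups; 33.6% of all tested genes were called here, 14.7% higher and 18.9% lower, and 46.6% did not overlap. The median log2 difference of the 9 was 0.996, against -0.01 over all tested genes. Ccn2 again differed most, by 2.11 ± 0.29, a 4.61-fold ratio of means (log2, SE; limma adjusted p = 0.000343). Wwtr1 differed by 1.32 ± 0.24 (limma adjusted p = 0.00178), Yap1 by 1.01 ± 0.24 (limma adjusted p = 0.00774), and Tead2, Tead3 and Tead4 by 0.996, 0.95 and 0.83 on the log2 scale. Ccn1 was called in this comparison, at 1.13 ± 0.33 (log2, SE; limma adjusted p = 0.0225), with loaded cpTi its lowest group. That call was lost without loaded Nb3 alloy replicate 1 or 3 or loaded cpTi replicate 2 or 3, with differences of 0.99 to 1.13, and that of Tead4 was lost without loaded cpTi replicate 3, at 0.78. Relative to the non-marrow markers Ccn2 differed by 0.85 (limma adjusted p = 0.0176), while the median of all tested genes was -0.99. Of 15268 tested genes 159 were then called higher and 10447 lower. On that scale Ccn2 also stood higher in Nb3 alloy without loading, as did the median of all tested genes, at 0.57. The loading difference of Ccn2 beside Nb3 alloy was not called on that scale. Between the materials its loading difference differed by 0.24 (limma adjusted p = 0.604). The comparison of the materials under loading and that of loading beside Nb3 alloy share the 3 loaded Nb3 alloy libraries, so they are not independent of each other.

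Loading beside cpTi gave 0 calls among the 9 genes by limma, 1 at an unadjusted p under 0.05 (Ccn1) and 0 by limma-voom on recovered reads. Of all tested genes 0.00655% were called, which was 1 gene, and 1062 of 15268 had an unadjusted limma p under 0.05. Of the 9 log2 differences 7 were above 0, with a median of 0.22 against -0.03 over all tested genes. Ccn1, Wwtr1 and Tead2 did not overlap between the groups, as did not 16.4% of all tested genes. The 95% intervals reached 0.90 for Yap1 and 0.98 for Tead2, so differences of that size stayed within the error of these libraries. Osteoblast markers summed to 8978 to 10488 FPKM in loaded cpTi and 3187 to 5186 FPKM in non-loaded cpTi, and their part in these values was not tested.

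Without loading, Nb3 alloy and cpTi differed in 0 of the 9 genes by limma, 0 at an unadjusted p under 0.05 and 0 by limma-voom, and 0% of all tested genes were called. The log2 differences ran from -0.32 for Tead3 to 0.02 for Tead2. Tead4 alone did not overlap between the groups, at 0.686 to 0.834 FPKM in Nb3 alloy and 1.02 to 1.52 FPKM in cpTi, and 7.29% of all tested genes were likewise separate. The 95% interval for Ccn2 was -0.64 to 0.62 and that for Ccn1 was -0.79 to 0.67. Smooth muscle and pericyte markers summed to 112 to 185 FPKM in non-loaded Nb3 alloy and 222 to 361 FPKM in non-loaded cpTi. Their median log2 difference was -1.39, with 4 of 7 at an unadjusted limma p under 0.05 and 0 called. Over all tested genes 470 of 15268 had an unadjusted limma p under 0.05. Medians were -1.02 for Schwann cell, -0.46 for fibroblast, -0.14 for endothelial and 0.04 for osteoblast markers. The part of these in the loading differences and the interaction was not tested.

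The loading difference itself was larger in Nb3 alloy than in cpTi for 6 of the 9 genes on the deposited scale and for none after rescaling to the non-marrow markers, where 1, Amotl2, was called the other way at -1.07. Of all tested genes 20.2% were called in this interaction, 8.42% higher. After rescaling 148 of 15268 were called higher and 11620 lower. Ccn2 had the largest value, 2.12 ± 0.41 (log2, SE; limma adjusted p = 0.00522), followed by Wwtr1 at 1.40 ± 0.33 (limma adjusted p = 0.0144), Tead3 at 1.27, Yap1 at 1.25, Tead4 at 1.15 and Amotl2 at 0.75. Tead2 at 0.98 (limma adjusted p = 0.0701), Ccn1 at 1.19 (limma adjusted p = 0.0988) and Tead1 at 0.55 (limma adjusted p = 0.465) were not called. The 35 non-marrow markers had a median of 1.74 in the same interaction, and the osteoblast list among them -0.07 with 0 of 7 called. The count fell to 3 without any 1 of non-loaded Nb3 alloy replicate 3, loaded cpTi replicate 3 and non-loaded cpTi replicates 2 and 3. In the same order these fits called 2018, 2142, 2135 and 2341 of 15268 tested genes, against 3089 with all libraries.

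Plain FPKM ratios within a library do not move with its scaling. The log2 values tested below add 1 to each level, so scaling can move them. The part of the mix of cells in these ratios was not tested. The ratio of Ccn2 to Ccn1, in FPKM, was 2.06 to 3.96 in loaded Nb3 alloy, 0.450 to 1.73 in non-loaded Nb3 alloy, 1.24 to 1.67 in loaded cpTi and 0.515 to 1.25 in non-loaded cpTi. All 3 loaded Nb3 alloy libraries had the highest ratios of the 12. On the scale of log2((Ccn2 + 1)/(Ccn1 + 1)) the loading difference beside Nb3 alloy was 1.78, with a two-sided exact permutation p of 0.1, the smallest that 3 against 3 libraries allow. It was 0.4 after adjustment over 8 ratio comparisons. The material difference under loading was 0.97 with the same exact permutation p of 0.1, loading beside cpTi gave 0.85 (exact permutation p = 0.2) and the materials without loading 0.05 (exact permutation p = 1). The ratio of Wwtr1 to Yap1 overlapped between the groups in all 4 comparisons. It was 0.724 to 1.22 in loaded Nb3 alloy, 0.757 to 0.849 in non-loaded Nb3 alloy, 0.686 to 0.792 in loaded cpTi and 0.627 to 0.836 in non-loaded cpTi. Loaded Nb3 alloy replicate 2 was the 1 library with more Wwtr1 than Yap1, and the exact permutation p-values were 0.2 to 0.8.

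The summed level of the 4 TEAD genes was 17.9 to 20.6 FPKM in loaded Nb3 alloy, 4.22 to 7.91 FPKM in non-loaded Nb3 alloy, 7.97 to 11.3 FPKM in loaded cpTi and 6.47 to 8.61 FPKM in non-loaded cpTi. Tead3 held the largest share in 11 of 12 libraries, at 35.3 ± 4.34% in loaded Nb3 alloy, 36.9 ± 8.02% in non-loaded Nb3 alloy, 33.4 ± 3.69% in loaded cpTi and 38.4 ± 2.81% in non-loaded cpTi (mean ± SD, n = 3 each). Tead2 led in the remaining library, loaded Nb3 alloy replicate 1, with 40.4% against 39.9% for Tead3. In that library Tead1 fell to 5.09% of the sum, against 16.8 to 26.6% in the other 11. Tead4 had its highest share, 29.0%, in loaded Nb3 alloy replicate 2.

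**Figure D4:**
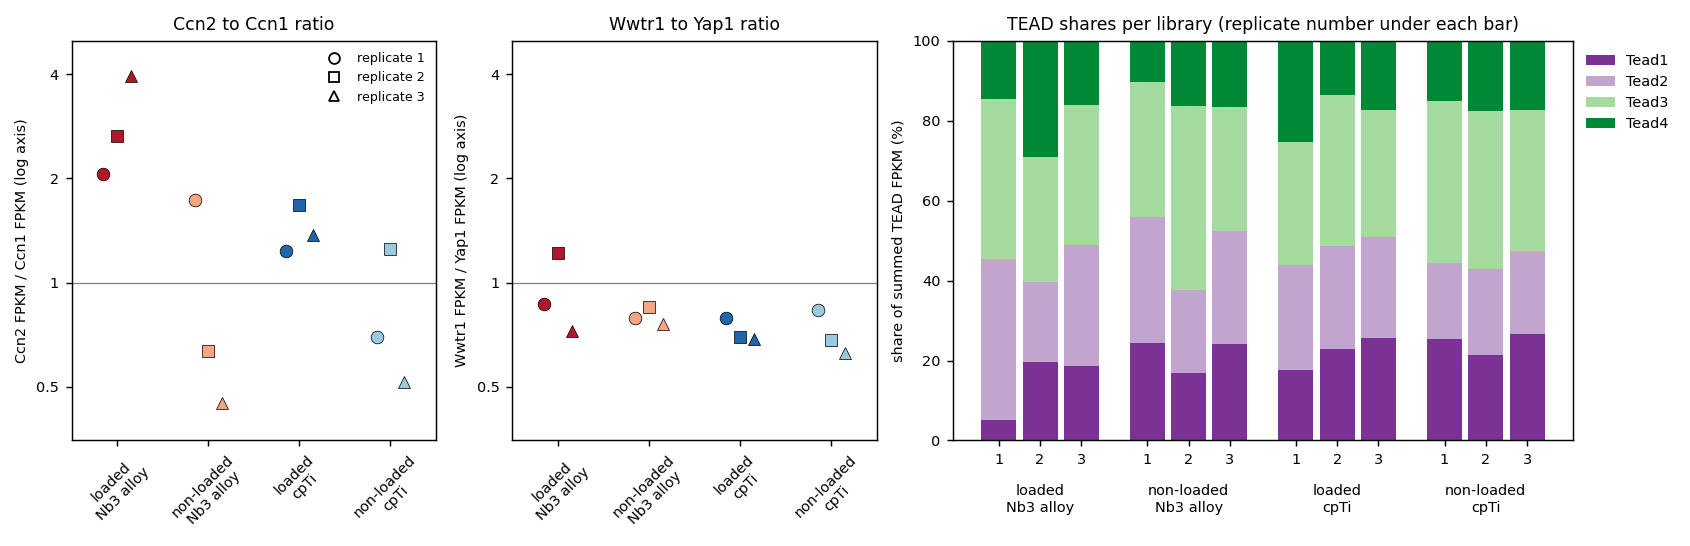
Left and middle, the ratio of Ccn2 to Ccn1 and of Wwtr1 to Yap1 in each library (FPKM ratio, log axes), by group. Right, the share of each TEAD gene in the summed TEAD FPKM (%), 1 bar per library. The Ccn2 to Ccn1 ratio is 2.06 or more in the 3 loaded Nb3 alloy libraries and 1.73 or less in the others, and Tead3 is the largest TEAD share in 11 of 12 libraries.

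Among other genes of the pathway, the Hippo kinase core had calls in both directions, near the shares over all tested genes. Of its 7 genes 2 were called higher and 2 lower for loading beside Nb3 alloy, where 20.7% of all tested genes were called higher and 25.2% lower, and the median log2 difference was 0.05. Stk4, which encodes the kinase MST1 and is abundant in blood cells, had 7.41, 8.62 and 6.11 FPKM in loaded Nb3 alloy and 23.5, 22.4 and 27.6 FPKM in non-loaded Nb3 alloy, a difference of -1.61 (limma adjusted p = 1.61e-05). Its paralog Stk3, which encodes MST2, went the other way by 0.65 (limma adjusted p = 0.000868). Lats2, a kinase that phosphorylates YAP and is itself known as a YAP target, had 16.4, 20.2 and 19.9 FPKM in loaded Nb3 alloy against 9.99, 5.71 and 5.41 FPKM in non-loaded Nb3 alloy, a difference of 1.34 (limma adjusted p = 0.000823). Mob1a, which encodes a LATS cofactor, was lower by limma at -0.58, and this call was lost without non-loaded Nb3 alloy replicate 3. After rescaling to the non-marrow markers Lats2 and Stk3 changed sign, to -0.55 and -1.15.

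Upstream and cofactor genes were mostly higher on the deposited scale: of 18 tested, 10 were called higher and 2 lower, beside 20.7 and 25.2% of all tested genes, with a median of 0.59. Amot and Vgll1 were not in the table and Vgll2 was not tested. Ajuba and Wtip, LIM domain genes whose proteins bind LATS kinases, differed by 1.64 and 1.39 on the log2 scale (limma adjusted p = 0.000554 and 0.000467). Wwc2, of the KIBRA family that acts above LATS, differed by 0.84 (limma adjusted p = 0.000904). Taok3, which encodes a kinase of the TAO family that can activate MST kinases, had 5.66, 7.34 and 6.54 FPKM in loaded Nb3 alloy and 19.7, 17.6 and 25.7 FPKM in non-loaded Nb3 alloy, lower by limma at -1.54 (adjusted p = 3.04e-05). Ajuba, Wtip and Wwc2 changed sign after rescaling to the non-marrow markers, to -0.17, -0.53 and -0.90.

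The other 16 genes of a published YAP and TAZ target signature held 6 genes called higher and 3 called lower, with a median of 0.51, where 45.8% of all tested genes were called. Fjx1, the homolog of the fly Golgi kinase four-jointed, had 5.88, 6.22 and 7.93 FPKM in loaded Nb3 alloy and 1.97, 2.12 and 0.949 FPKM in non-loaded Nb3 alloy, a difference of 1.54 (limma adjusted p = 0.000936). F3, tissue factor, differed by 1.32 (limma adjusted p = 0.00335) and Igfbp3, which encodes a binding protein of insulin-like growth factors, by 1.74 (limma adjusted p = 0.0115); the Igfbp3 call was lost without non-loaded Nb3 alloy replicate 3. Asap1, which encodes an Arf GTPase-activating protein, was lower at -0.88 (limma adjusted p = 0.00205). Fjx1, F3 and Igfbp3 stood at -0.02, -0.31 and -0.22 after rescaling. Without loaded Nb3 alloy replicate 3, or non-loaded Nb3 alloy replicate 2 or 3, the 9 calls of this list were 5, 5 and 3. The same fits called 6524, 6296 and 5599 of all 15268 tested genes.

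Of the other CCN genes, Ccn3, which encodes the matrix protein NOV, showed the widest difference of any pathway gene tested on the log2(FPKM + 1) scale. It had 31.7, 45.2 and 12.4 FPKM in loaded Nb3 alloy, 0.761, 0.485 and 1.08 FPKM in non-loaded Nb3 alloy, 1.33, 4.66 and 2.11 FPKM in loaded cpTi and 2.46, 2.98 and 6.55 FPKM in non-loaded cpTi. Every loaded Nb3 alloy library was above all others, with a loading difference of 3.96 (limma adjusted p = 7.54e-05). Ccn5 differed by 1.82 (limma adjusted p = 0.015), a call that was lost without loaded Nb3 alloy replicate 2 or non-loaded Nb3 alloy replicate 2, and Ccn4, at 0.75, was not called; Ccn6 was not tested.

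**Figure D5:**
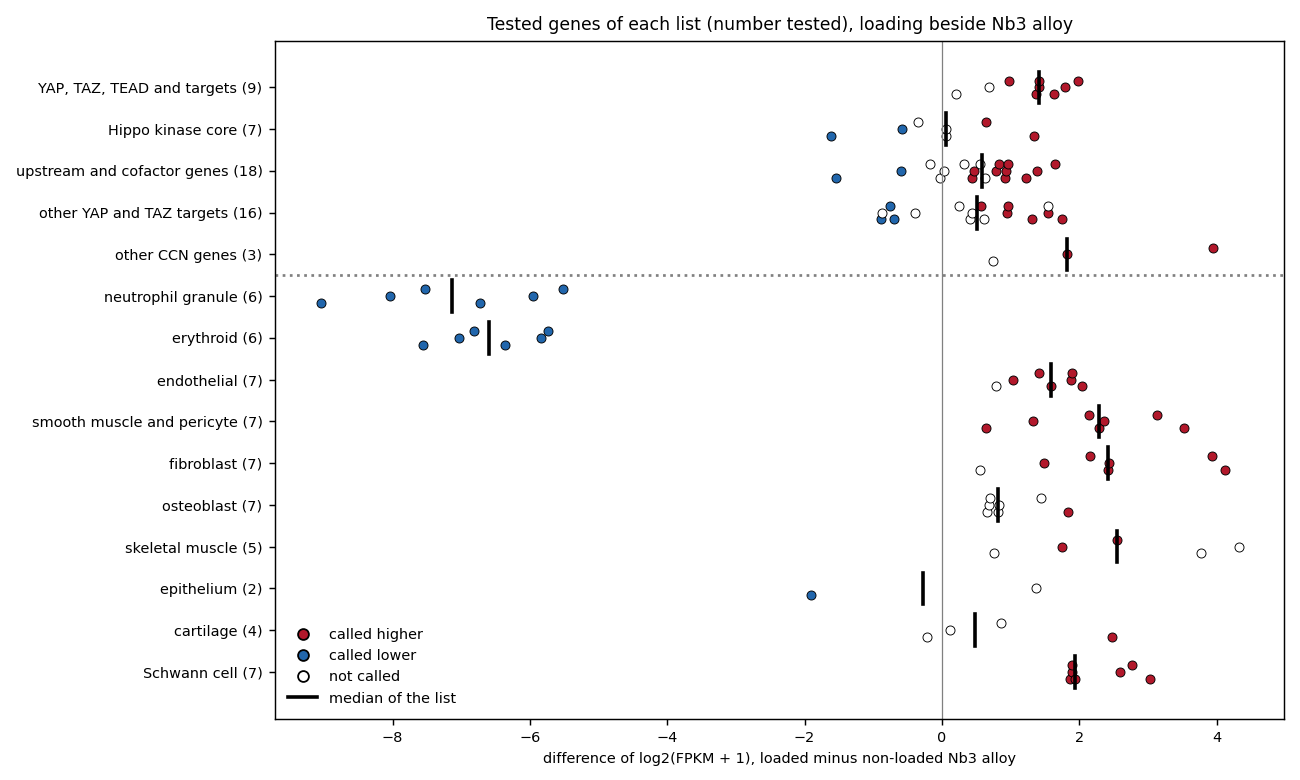
Log2 difference between loaded and non-loaded Nb3 alloy for every tested gene of each list, with the list's median as a bar, red for called higher, blue for called lower and open for not called. The 9 genes have a median of 1.42 and the Hippo kinase core a median of 0.05, and below the dotted line the neutrophil and erythroid markers lie far to the left while endothelial, smooth muscle, fibroblast and Schwann cell markers lie to the right.

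Under loading, Nb3 alloy against cpTi gave 2 higher and 1 lower in the kinase core, 7 higher and 2 lower of 18 upstream and cofactor genes, 4 higher and 1 lower of 16 other targets, and 1 higher of 3 other CCN genes. Of all tested genes 33.6% were called in this comparison, 14.7% higher and 18.9% lower, and the kinase core and the other targets lay near that share. The kinase core calls were Stk3 at 0.51, Lats2 at 0.93 and Stk4 at -1.30. Wtip (1.11), Ajuba (1.04), Rassf1 (0.54, a scaffold of MST kinases) and Taok3 (-1.32) led the upstream genes. Among targets Fjx1 (1.25), F3 (1.06), Nt5e (1.22, the gene of the ectonucleotidase CD73) and Asap1 (-0.67) had the smallest p, and Ccn3 differed by 2.98, all with a limma adjusted p under 0.05. Loading beside cpTi and the materials without loading gave 0 calls in all 4 lists by limma and 0 by limma-voom. At an unadjusted p under 0.05 there was 1 gene for loading beside cpTi, in the CCN list, and 2 for the materials without loading. Over all 15268 tested genes these counts were 1062 and 470.

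The genes closest in pattern over the 12 libraries were found as the smallest root mean square difference of centred log2(FPKM + 1), among 8559 genes with a mean of at least 5 FPKM. Yap1 was followed most closely by Pde8a, a phosphodiesterase gene (0.108), Fstl1, of a secreted glycoprotein (0.120), and Ephb4, of a receptor for ephrins (0.130), while its own SD was 0.71. Wwtr1 was nearest to Epas1, which encodes HIF-2α (0.125), Ehd2, of a caveola protein (0.131), and Heg1, of an endothelial receptor (0.144), with an own SD of 0.80. Ccn2 had Sox17, of an endothelial transcription factor (0.286), Il34, of a ligand of the CSF1 receptor (0.310), and Ltbp4, of a matrix protein that binds latent TGF-β (0.366), as nearest genes, with an own SD of 0.98. Ccn1 had no close companion: the nearest, Ica1, was 0.383 away, against an own SD of 0.61.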

How the data were processed

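RNA was isolated with TRIzol and selected for poly(A), and a NEBNext Ultra kit was used, per the labels' protocols. The authors deposited FPKM for 33801 genes. Per the submitters' processing notes, the tools were DESeq2 1.20.0, featureCounts 1.5.0-p3, HISAT2 2.0.5, CASAVA 1.8 and fastp, without a stated role for each. Not given in the sources used here are the build, the annotation and whether counting used strand, so the deposited positions are printed as they stand. Multiplying FPKM by gene length recovered whole reads within 0.01 for 99.97% of values above 0, and the scaling followed median-of-ratios size factors (ratio 0.992 to 1.02).

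Values were analysed as log2(FPKM + 1), which understates differences of low genes, with limma 3.58.1 in R 4.3.3 (1 mean per group, 12 libraries, 8 residual degrees of freedom, trended and robust moderation) over 15268 genes. Limma-voom on the recovered reads was an alternative, as were other pseudocounts, filters, scalings, a replicate block and each library left out. Ratios were tested by exact permutation in Python 3.11.15 with scipy 1.17.1. Promoter windows came from RefSeq (GRCr8).

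The 10 genes and all lists were chosen with earlier results of these data known. From each pathway list up to 4 called genes by smallest p were named in each comparison, and the 3 nearest genes for Yap1, Wwtr1, Ccn1 and Ccn2. Scaling to non-marrow markers, and shares with a library left out, were chosen after seeing the data.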

Additional observations from a re-analysis of the deposited data

Results flagged for a closer look

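The loading difference was tested between the materials, as an interaction in limma, and differed for 6 of the 9 tested genes (adjusted p under 0.05), where 20.2% of all tested genes were called and 8.42% called higher. The values, loading difference in Nb3 alloy minus that in cpTi on the log2 scale, were 2.12 for Ccn2, 1.40 for Wwtr1, 1.27 for Tead3, 1.25 for Yap1, 1.15 for Tead4 and 0.75 for Amotl2. Each was above 0 in every fit that left out 1 library, but the number called ranged from 3 to 7 and was 3 without any 1 of non-loaded Nb3 alloy replicate 3, loaded cpTi replicate 3 and non-loaded cpTi replicates 2 and 3. The fits that left out 1 library called 1986 to 3159 of all 15268 tested genes. After rescaling to 35 non-marrow markers, chosen after seeing the data, the same differences were 0.24 for Ccn2, -0.38 for Wwtr1, -0.22 for Tead3, -0.55 for Yap1, -0.09 for Tead4 and -1.07 for Amotl2, of which only Amotl2 passed the test.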

How the results depend on the processing

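Leaving out 1 library at a time gave 7 to 8 calls among the 9 genes for loading beside Nb3 alloy, 6 to 8 for Nb3 alloy against cpTi under loading, 3 to 7 for the interaction and 0 for the other comparisons. Over all genes the called counts were 5599 to 6948, 3429 to 5152, 1986 to 3159, 0 to 4 for loading beside cpTi and 0 to 4 for the materials without loading. Limma-voom on recovered reads called 7049 genes for loading beside Nb3 alloy, against 6996. Requiring an absolute log2 difference of at least 1 left 4 of the 8 calls under loading, and 3475 and 2275 genes in the first and the material comparison under loading. For loading beside cpTi the count over all genes was 0 with a pseudocount of 0.1, limma-voom, the replicate block or the compared groups alone, 2 with no filter, the stricter filter or non-marrow scaling, and 3 with quantile normalization; for the materials without loading it was 1 with no filter or non-marrow scaling. Total-read scaling moved the median of all genes to -0.17 for loading beside Nb3 alloy, with 2266 genes higher and 4667 lower, against 3156 higher and 3840 lower as deposited. The interaction then had 844 higher and 2386 lower, against 1285 and 1804, and 4 of the 9 genes; under loading it was 1359 higher and 3671 lower, against 2239 and 2884.

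The replicate numbers did not pair the libraries: 1 of 18 pairs with a shared number had deviations correlated above 0.1 (-0.25 to 0.11). With the replicate block the calls among the 9 genes were 7, 0, 8, 0 and 5, beside 6568, 0, 4591, 0 and 2608 of 15268 tested genes. Amotl2 lost the interaction call at 0.75 (limma adjusted p = 0.0738).

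Scaling to non-marrow markers left 2, 1 and 1 calls for loading beside Nb3 alloy, material under loading and the interaction, and called 12856, 10606 and 11768 genes overall (156, 159 and 148 of them higher). Signs turned for loading beside Nb3 alloy in Yap1 (-0.31), Wwtr1 (-0.12), Tead1 (-0.59), Tead2 (-0.089), Tead3 (-0.23), Ccn1 (-1.80), Ccn2 (-0.042), Amotl2 (-0.99), Lats2 (-0.55), Stk3 (-1.15), Wtip (-0.53), Ajuba (-0.17), Wwc2 (-0.90), Fjx1 (-0.015), F3 (-0.31), Igfbp3 (-0.22) and Ccn5 (-0.18). Under loading they turned in Yap1 (-0.20), Tead1 (-0.54), Tead2 (-0.00072), Tead3 (-0.084), Tead4 (-0.081), Ccn1 (-0.10), Amotl2 (-0.45), Stk3 (-0.59), Lats2 (-0.25), Wtip (-0.086), Rassf1 (-0.67) and Ajuba (-0.11). In the interaction they turned in Yap1 (-0.55), Wwtr1 (-0.38), Tead1 (-0.61), Tead2 (-0.45), Tead3 (-0.22), Tead4 (-0.085), Ccn1 (-0.66) and Amotl2 (-1.07), and for loading beside cpTi in Tead3 (-0.010). Without loading they turned in Yap1 (0.35), Wwtr1 (0.50), Tead1 (0.067), Tead3 (0.14), Tead4 (0.0049), Ccn1 (0.56) and Ccn2 (0.61). The cause was not tested.

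Signs near 0 also turned for the materials without loading: Tead2 with a pseudocount of 0.1 (-0.0071) and limma-voom (-0.015), Ccn2 with total reads (0.0027) and limma-voom (0.00018), and Amotl2 with quantile normalization (-0.0012). With single libraries left out, values that crossed 0 ran there from -0.12 to 0.075 for Amotl2, -0.32 to 0.35 for Ccn1, -0.15 to 0.25 for Ccn2, -0.22 to 0.23 for Tead2 and -0.30 to 0.13 for Wwtr1. For loading beside cpTi they ran from -0.25 to 0.030 for Ccn2 and -0.077 to 0.22 for Tead3, and beside Nb3 alloy from -0.20 (without non-loaded Nb3 alloy replicate 1) to 0.47 for Ccn1. The ratio of Wwtr1 to Yap1 ranged from -0.037 to 0.33 for loading beside Nb3 alloy and -0.065 to 0.13 beside cpTi, and that of Ccn2 to Ccn1 from -0.50 to 0.44 for the materials without loading.

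Counted in reads without length correction, Tead1 held 28.6% of TEAD reads in non-loaded Nb3 alloy, 29.0% in loaded cpTi and 31.7% in non-loaded cpTi, Tead2 22.3 and 17.3% in loaded and non-loaded cpTi, and Tead4 12.9% in non-loaded cpTi. Depth limits Ankrd1 (1 to 54 reads) and Tead4 (24 reads or more) most.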
